A study of Pyronema omphalodes CBS 100304 with 6 samples.

Results

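The genes described here are 6 of the 13369 predicted genes of *Pyronema confluens* and encode the putative parts of its circadian clock and its light receptors. *PCON_09365* (*frq*), *PCON_11360* (the homolog of the *frq*-interacting helicase gene *frh*), *PCON_03119* (similar to *white collar-1*, *wc-1*) and *PCON_06747* (similar to a cyanobacterial phytochrome) were chosen by locus tag. A search of the product descriptions for white collar, cryptochrome, photolyase, phytochrome and opsin added 2 genes, *PCON_05086* (similar to *white collar-2*, *wc-2*) and *PCON_04123* (similar to a cryptochrome of the DASH type). The words opsin and photolyase matched 0 descriptions. The search itself used no measured value.

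In *Neurospora crassa*, the fungus in which this clock was worked out, the photoreceptor WC-1 and its partner WC-2 form the white collar complex, which activates *frq*. FRQ protein then binds the helicase FRH, and the pair shuts the white collar complex down until FRQ has been phosphorylated and degraded. The same complex senses blue light, so that clock and light reception share their parts. Phytochromes are receptors for red and far-red light, and cryptochromes are flavoproteins related to the photolyases that repair DNA damaged by ultraviolet light. The roles of the *P. confluens* genes are inferred from similarity.

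RNA came from vegetative mycelium of strain CBS 100304 in shaken liquid culture at 25°, which had spent at least 24 hr in constant light before it was moved to constant darkness. DD24 (24 hr of darkness, subjective evening) and DD36 (36 hr, subjective morning) were each sequenced in 3 libraries from independent cultures, named a, b and c, and all were collected under red light at about equal culture age. The strain carried no introduced allele, no culture was collected in light, and the mycelium was in stationary phase. The comparison asks which transcripts differ between DD36 and DD24 when no light cue is present. Subjective time of day, hours of darkness and, at about equal age at harvest, the culture age at the shift to darkness differed together. Their effects cannot be told apart here.

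The deposited gene models differ in their coding length, exon number and untranslated ends, as the drawing of the models shows. All positions are those of the deposited annotation of genome v01_2. The *frq* model lies on the plus strand of scaffold 447 from 41234 to 44481 and has 4 exons. Its mRNA of 3056 bases encodes 857 residues. Its 5′UTR spans 542 bases, longer than that of 90.8% of all genes, and no 3′UTR is annotated. An intron of 57 bases lies within this 5′UTR, so that 485 of its bases are in the mRNA. Introns in the 5′UTR were found in 14.4% of all gene models. A length of 0 means that the model stops at the coding sequence, which holds for 24.6% of genes at the 5′ end and 20.8% at the 3′ end.

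The *frh* homolog *PCON_11360* (scaffold 596, 151352 to 155140, plus strand, 5 exons) has the opposite layout, with no annotated 5′UTR and a 3′UTR of 367 bases. It encodes 1071 residues, and its annotated match is an RNA helicase of fission yeast. *PCON_03119* (scaffold 1375, 111352 to 115170, plus strand, 5 exons) encodes 973 residues between UTRs of 446 and 197 bases. *PCON_05086* (scaffold 192, 9619 to 11710, plus strand, 2 exons) encodes 467 residues and has UTRs of 496 and 14 bases. The 5′UTRs of the *wc-1*-like and *wc-2*-like models are longer than those of 87.3% and 89.2% of genes, against a median of 95 bases over the whole table.

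The phytochrome-like *PCON_06747* (scaffold 279, 60949 to 68417, minus strand, 8 exons) is the longest of the 6 models, with an mRNA of 6795 bases and 1388 residues. Its 5′UTR spans 2322 bases, longer than that of 99.9% of genes, and holds an intron of 105 bases. Its 3′UTR has 414 bases, longer than that of 84.4% of genes. The cryptochrome-like *PCON_04123* (scaffold 1543, 27942 to 30093, minus strand, 2 exons) encodes 632 residues and has UTRs of 22 and 173 bases. None of the 6 models overlaps another model, and the smallest gaps are 35 bases between *PCON_03119* and the gene upstream on the same strand, 157 bases between *PCON_04123* and its upstream neighbor on the same strand, and 191 bases between *PCON_11360* and its upstream neighbor on the opposite strand.

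**Figure D1:**
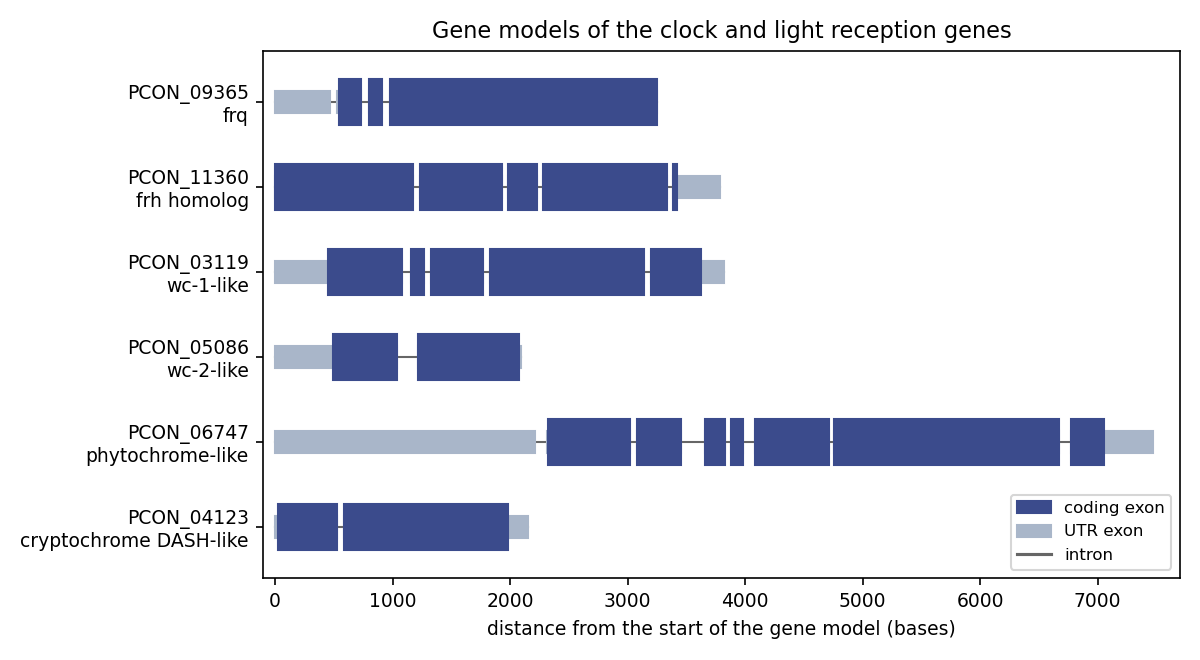
Gene models of the 6 genes, drawn to scale from the deposited positions; the x axis is the distance from the start of the model in bases, thick bars are coding exons, thin bars UTR exons and lines introns. The 5′UTR of *PCON_06747* (2322 bases) is the longest of the 6, and *PCON_09365* has no annotated 3′UTR.

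Total counts of the libraries lay between 806459 and 1132608, and between 8310 and 8945 genes had counts. CPM are counts divided by library size on the usual CPM scale, after TMM scaling of the libraries (trimmed mean of M values), and a count of 0 allows a level of up to 3 counts, which stood for 2.55 to 4.73 CPM. Limits and intervals from counts cover counting error only. DD24 replicate a stood apart, with 52.2% of its counts in one gene model (*PCON_08583*) against 30.7% to 39.3% in the others and a TMM factor of 0.728 against 1.02 to 1.13. The filter on low counts passed 5466 genes, among them 5 of the 6 described here.

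*frq* was at 45.7, 59.4 and 38.8 CPM in DD24 libraries a, b and c (29, 68 and 32 counts) and at 63.7, 75.7 and 55.1 CPM in DD36 libraries a, b and c (55, 89 and 60 counts). The values were higher in DD36 in 3 of 3 pairs of the same letter, but the groups overlapped because DD24 replicate b lay above DD36 replicate c. Of all genes tested, 15.9% were higher in DD36 in every pair. The mean was 48.0 ± 10.5 CPM in DD24 and 64.8 ± 10.3 CPM in DD36 (SD, n = 3 for both), and the fitted log2 fold change was 0.42 (standard error 0.21, 95% interval -0.04 to 0.87), a fold of 1.33. It did not pass over all genes (unadjusted p = 0.0726 and adjusted p = 0.743, quasi-likelihood test of edgeR).

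Same-letter libraries strayed from their group means in like ways, and adding the letter to the model as a block gave *frq* a log2 fold change of 0.43 (standard error 0.18, unadjusted p = 0.0299 and adjusted p = 0.361 from edgeR). An unadjusted p under 0.05 with a higher level in DD36 was reached by 4.13% of genes in that fit. Without DD24 replicate c the log2 fold change of *frq* in the fit without a block was 0.28, and without DD36 replicate b it was 0.29. Without DD24 replicate b it was 0.63.

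The *frh* homolog gave nearly level values. It was at 56.7, 57.7 and 50.9 CPM in DD24 libraries a, b and c (36, 66 and 42 counts) and at 62.5, 55.3 and 56.0 CPM in DD36 libraries a, b and c (54, 65 and 61 counts). The groups overlapped and the pairs disagreed in direction. The means were 55.1 ± 3.66 CPM and 57.9 ± 4.0 CPM (SD, n = 3 for both), with a log2 fold change of 0.07 (95% interval -0.32 to 0.46). This interval reaches from 0.799-fold to 1.37-fold.

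The *wc-1*-like gene had the highest counts of the group. It was at 149.6, 122 and 90.9 CPM in DD24 libraries a, b and c (95, 140 and 75 counts) and at 103, 114 and 86.3 CPM in DD36 libraries a, b and c (89, 134 and 94 counts). The DD36 values were lower in each pair, by -0.54 on the log2 scale in pair a and by -0.10 and -0.08 in pairs b and c, and the groups overlapped. The log2 fold change of -0.25 (standard error 0.20, 95% interval -0.67 to 0.17) did not pass (edgeR, adjusted p = 0.869). It was -0.09 with the low-TMM library DD24 replicate a left out, and with total-count scaling it was 0.0071.

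The *wc-2*-like gene had fewer counts and spread more widely. It was at 17.3, 23.6 and 15.8 CPM in DD24 libraries a, b and c (11, 27 and 13 counts) and at 33.6, 14.5 and 23.0 CPM in DD36 libraries a, b and c (29, 17 and 25 counts). The highest and the lowest value of all 6 libraries were both in DD36. The log2 fold change of 0.25 (standard error 0.34, 95% interval -0.47 to 0.98) turned to -0.07 without DD36 replicate a. Its biological coefficient of variation, the spread between replicates beyond counting error, was estimated at 0.209, against a median of 0.160 for 1443 genes of similar level, and those of the other 4 genes tested lay between 0.114 and 0.166.

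The phytochrome-like gene varied least, but its biological coefficient of variation of 0.114 was close to the 0.116 of the *frh* homolog. It was at 55.1, 58.6 and 59.4 CPM in DD24 libraries a, b and c (35, 67 and 49 counts) and at 63.7, 61.2 and 67.9 CPM in DD36 libraries a, b and c (55, 72 and 74 counts). It was the 1 gene of the 5 tested whose CPM did not overlap between the groups, which held for 11.9% of all genes tested, and for 6.02% with higher values in DD36. The difference was small, with means of 57.7 ± 2.26 CPM and 64.3 ± 3.41 CPM (SD, n = 3 for both) and a log2 fold change of 0.15 (standard error 0.17, 95% interval -0.22 to 0.53). It did not pass (adjusted p = 0.932 from edgeR). Both SDs were below the counting error of 35 to 74 counts, which the lack of overlap does not take into account.

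The cryptochrome-like gene was barely detected. It had 1 count in DD24 replicate b and 0 counts in the other 5 libraries. With 0 of 1058211 counts in DD36 replicate b, the 95% Clopper-Pearson interval of its share reached up to 3.49 on the CPM scale before TMM scaling. It reached up to 4.57 with 0 of 806459 counts in DD24 replicate c, the shallowest library. With 1 of 1132608 counts in DD24 replicate b, it reached up to 4.92. A photo-lyase gene that the search missed because its description is spelled with a hyphen, *PCON_10985*, was also low, with 4, 7 and 5 counts in DD24 and 3, 6 and 5 counts in DD36 for replicates a, b and c. Both were left out of the comparison by the filter.

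**Figure D2:**
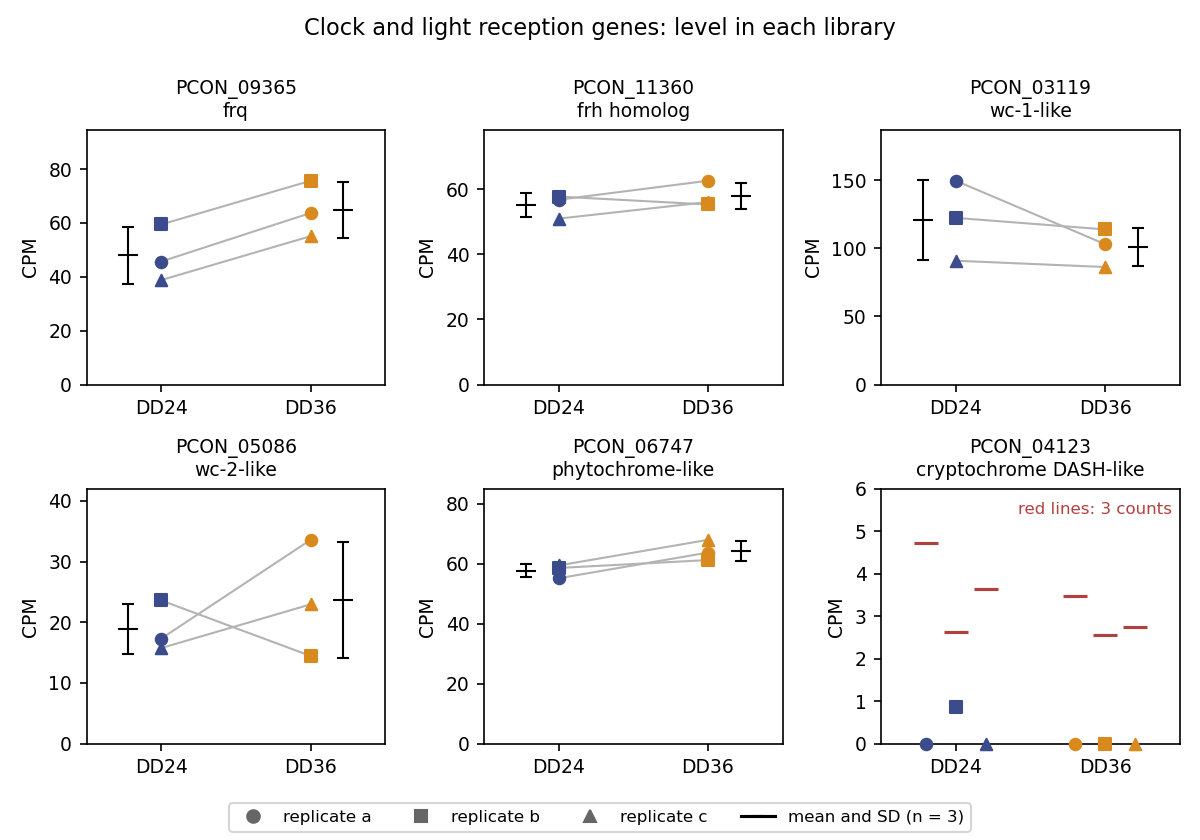
Level of each gene in CPM (y axis, TMM-scaled) in DD24 and DD36, with a symbol for each replicate letter, grey lines between libraries of the same letter, and the mean and SD of 3 libraries in black; the panel of *PCON_04123* shows in red the level of 3 counts in each library instead. *PCON_09365* was higher in DD36 in 3 of 3 pairs, and *PCON_05086* had its highest and lowest value in DD36.

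In the comparison of DD36 vs. DD24 0 of the 5 genes tested and 0.0% of all genes passed an adjusted p of 0.05 from edgeR. At an unadjusted p under 0.05 there were 0 of the 5, against 6.99% of all genes. By limma-voom 0 of the 5 genes and 0 of all genes passed, and the unadjusted p of the 5 genes lay between 0.078 and 0.743, where 6.88% of all genes were under 0.05. DESeq2 gave no adjusted p for the 5 genes, which fell to its own filter on low means, and called 5.56% of the 486 genes it adjusted. Its unadjusted p lay between 0.175 for *frq* and 0.827 for the *frh* homolog, where 3.35% of all genes had an unadjusted p under 0.05. With the replicate block 1.3% of all genes and 0 of the 5 genes passed (edgeR), and at an unadjusted p under 0.05 *frq* was the 1 gene of the 5, against 11.6% of all genes. The intervals of the 5 log2 fold changes all included 0, and their upper ends lay between 0.17 and 0.98.

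**Figure D3:**
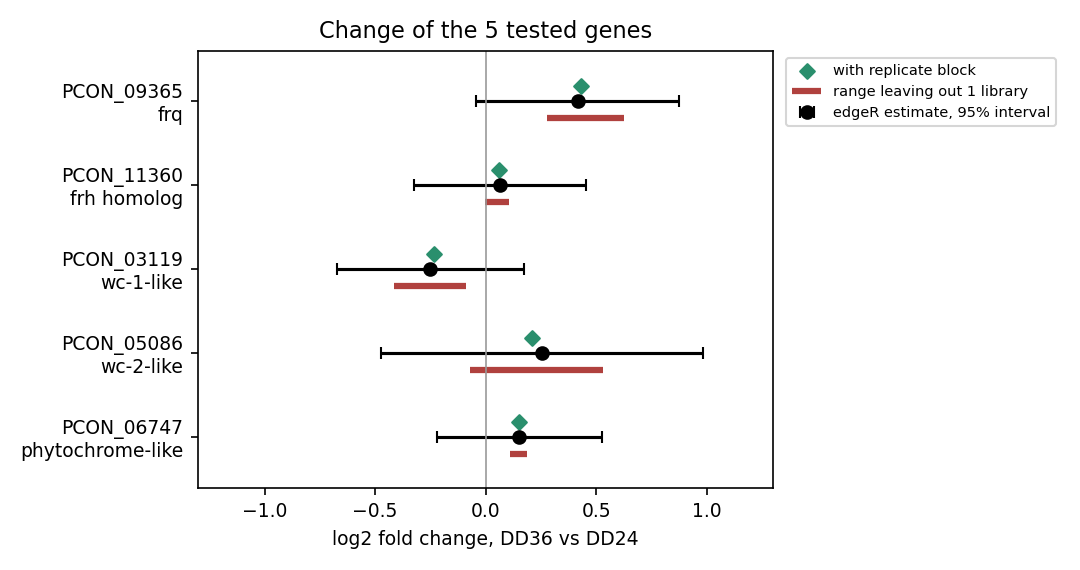
Log2 fold change in DD36 vs. DD24 (x axis) of the 5 genes tested, with 95% intervals from edgeR in black, the estimate with the replicate block as a diamond and the range of estimates when 1 library is left out as a red bar. All 5 intervals include 0, and the range of *PCON_05086* reaches from -0.07 to 0.53.

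All 5 log2 fold changes moved with the scaling of the libraries. With total-count scaling, in which the large share of *PCON_08583* in DD24 replicate a counts in full, all genes had a median log2 fold change of 0.23. Under it the log2 fold change was 0.65 for *frq*, 0.30 for the *frh* homolog, 0.0071 for the *wc-1*-like, 0.48 for the *wc-2*-like and 0.38 for the phytochrome-like gene. Relative to the median of all genes these are 0.42, 0.07, -0.22, 0.25 and 0.15, close to the values with TMM scaling. As shares of all counts the values of *frq*, the *frh* homolog and the phytochrome-like gene were higher in DD36 without overlap, which held for 14.9% of all genes tested.

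A ratio of 2 genes within a library does not depend on this scaling. The count of *frq* was 0.305, 0.486 and 0.427 of that of the *wc-1*-like gene in DD24 libraries a, b and c. In DD36 libraries a, b and c it was 0.618, 0.664 and 0.638. The groups did not overlap, and the ratio was higher in DD36 in each pair. The means were 0.406 ± 0.0920 in DD24 and 0.640 ± 0.0232 in DD36 (SD, n = 3 for both), a difference of 0.68 on the log2 scale, which ranged from 0.49 to 0.83 when 1 library was left out. This was the 1 ratio without overlap among the 10 that the 5 genes allow. Of all other genes tested, 6.57% had a ratio to the *wc-1*-like gene that was higher in DD36 without overlap, and 7.5% one without overlap in either direction. For ratios to *frq* the share in either direction was 23.7%, so that a ratio without overlap was common with *frq* as the denominator. The shares were 11.4%, 3.07% and 15.3% for ratios to the *frh* homolog, the *wc-2*-like and the phytochrome-like gene. With 3 libraries against 3 an exact permutation test cannot go below 0.10.

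The ratio of *frq* to the *frh* homolog was higher in DD36 in 3 of 3 pairs, with 0.806, 1.03 and 0.762 in DD24 libraries a, b and c and 1.02, 1.37 and 0.984 in DD36 libraries a, b and c. These ranges overlapped. The ratio of *frq* to the phytochrome-like gene was likewise higher in 3 of 3 pairs and overlapped, with means of 0.832 ± 0.181 and 1.02 ± 0.213 (SD, n = 3 for both). The ratio of *frq* to the *wc-2*-like gene was higher in DD36 in 1 of 3 pairs, and reached 5.24 in DD36 replicate b, where the *wc-2*-like gene was lowest. The *frh* homolog and the phytochrome-like gene stayed near a 1 to 1 ratio of counts, between 0.824 and 1.03 in all 6 libraries. This ratio was higher in DD36 in 0 of 3 pairs, and the ranges overlapped. Their mRNAs have 3580 and 6795 bases, so that equal counts are not equal levels per length.

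**Figure D4:**
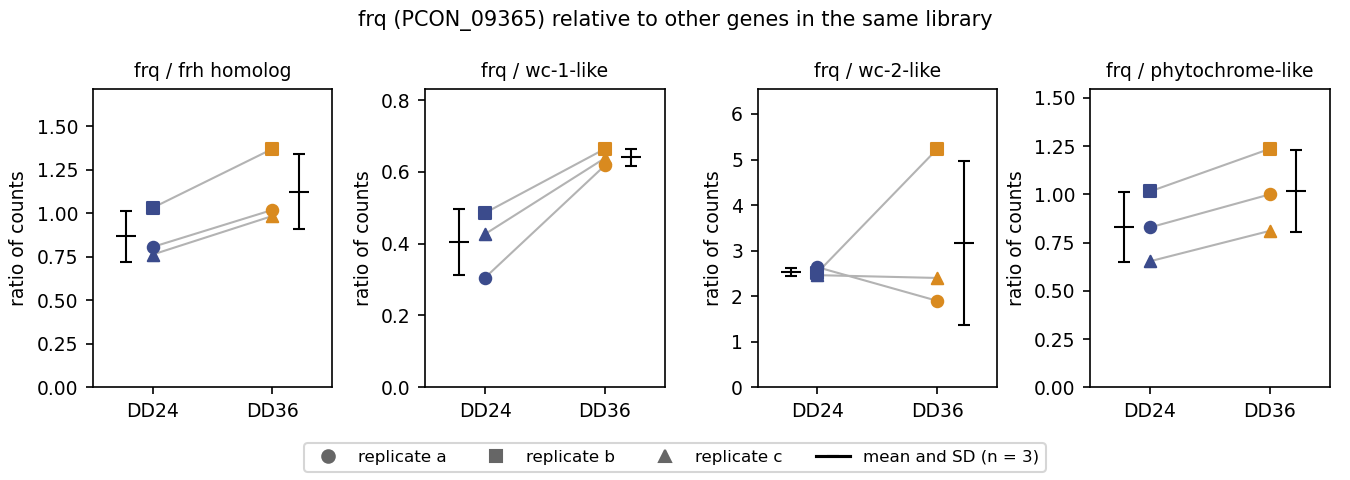
Ratio of the counts of *frq* to those of the other 4 genes tested (y axis, no unit) within each library in DD24 and DD36, with a symbol for each replicate letter, lines between libraries of the same letter, and the mean and SD of 3 libraries in black. The ratio to the *wc-1*-like gene lies between 0.305 and 0.486 in DD24 and between 0.618 and 0.664 in DD36.

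Levels of different genes were compared per kilobase of mRNA. The *wc-1*-like gene was highest, with 34.0 ± 8.25 CPM per kilobase in DD24 and 28.4 ± 3.91 in DD36 (SD, n = 3 for both), above 61.7% of the genes tested. *frq* followed with 15.7 ± 3.44 and 21.2 ± 3.38, and the *frh* homolog with 15.4 ± 1.02 and 16.2 ± 1.12 (SD, n = 3 for each). The *wc-2*-like gene was at 9.89 ± 2.17 and 12.4 ± 5.02 and the phytochrome-like gene at 8.49 ± 0.333 and 9.46 ± 0.501 (SD, n = 3 for each). The median of all genes tested was 22.9 CPM per kilobase, so that 4 of the 5 genes were below it. Against all 13369 genes, those that did not pass the filter included, the 5 genes ranked higher. The phytochrome-like gene was above 62.7% of them and the *wc-1*-like gene above 84.4%, with the others in between.

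The *wc-1*-like gene was above *frq* in 6 of 6 libraries, and their ranges overlapped in DD36. *frq* was above the *frh* homolog in 4 of 6 libraries, with overlapping ranges in DD24 and separate ones in DD36. The *frh* homolog was above the *wc-2*-like gene in 5 of 6 libraries. The *wc-2*-like and the phytochrome-like gene did not differ beyond their spread, with this order in 4 of 6 libraries per kilobase of mRNA and in 3 of 6 per kilobase of coding sequence. The choice of length mattered most for the phytochrome-like gene with its long 5′UTR, which was at 13.9 and 15.4 CPM per kilobase of coding sequence in DD24 and DD36. Whether reads in UTRs were counted is not stated in the labels or the study's methods.

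The genes whose levels followed *frq* most closely over the 6 libraries were *PCON_05985* (similar to a fatty acid elongase, Pearson's r = 0.961), *PCON_13267* (ribosomal protein S20 of the small subunit, r = 0.954) and *PCON_03534* (thioredoxin, r = 0.953). *PCON_05985* was at 165, 207 and 167 CPM in DD24 and at 228, 258 and 212 CPM in DD36 for replicates a, b and c. These are the closest of 5466 genes over 6 libraries that share their depth, and the correlation is a description. Among the 5 genes themselves, *frq* correlated at 0.565 with the *frh* homolog and at 0.0774 with the *wc-1*-like gene. A higher r to *frq* than that of the *frh* homolog was found for 586 genes. The widest values among the 5 were 0.827 for the *frh* homolog with the *wc-2*-like gene and -0.809 for the *wc-1*-like with the phytochrome-like gene.

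The genes that act on FRQ and the white collar complex in *N. crassa* were described from lists built by words in the product descriptions. The 19 genes for kinases and phosphatases of the kinds that set the phosphorylation of FRQ were all tested, and 0 passed in either direction (0 also at an unadjusted p under 0.05, edgeR). Their median log2 fold change was 0.09, against -0.0022 for all genes tested, with 14 above 0, where 49.7% of all genes tested lay above 0. Those with the smallest p were *PCON_09259* (protein phosphatase PP1) at 0.19 (standard error 0.15), *PCON_05279* (catalytic subunit of the cAMP-dependent kinase) at 0.40 (standard error 0.31) and *PCON_05350* (beta subunit of casein kinase II) at -0.23 (standard error 0.19). The casein kinase I homologs *PCON_10056* and *PCON_09586*, named after their values were seen, had higher levels than *frq*, at 248 and 142 CPM per kilobase of mRNA, and log2 fold changes of -0.02 and -0.05.

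FRQ is marked for degradation by an SCF ubiquitin ligase, whose activity depends on the COP9 signalosome. Of 16 genes matched for these complexes and for cullins 15 were tested and 0 passed, with a median log2 fold change of 0.04 and 8 above 0. The list took in Cullin-3 (*PCON_10179*) and Cullin-4 (*PCON_08383*), which belong to other ubiquitin ligases, and without them the median was -0.09, with 6 of 13 above 0. *PCON_04325*, for subunit 8 of the signalosome, had 5, 9 and 15 counts in the DD24 libraries a, b and c and 18, 24 and 21 counts in those of DD36, without overlap in CPM. Its log2 fold change was 0.84 (standard error 0.37, unadjusted p = 0.0383 and adjusted p = 0.708 from edgeR). It was the 1 gene of the 15 at an unadjusted p under 0.05, a share close to the 6.99% of all genes. *PCON_04325* passed the filter on low counts only with its DD36 libraries, where it was higher. Its p and its lack of overlap therefore come from the counts that also selected it. *PCON_10179* and *PCON_10346* (subunit 5 of the signalosome) were also higher in DD36 without overlap. This held for 3 of the 15, Cullin-3 included, against 6.02% of all genes. The log2 fold changes of *PCON_10179* and *PCON_10346* were small, at 0.26 and 0.14 (standard error 0.22 for each). A higher level without overlap was also found for 2 of the 19 kinase and phosphatase genes, where 1 was lower without overlap. In the lists that follow, it held for 0 of 10 exosome and TRAMP genes, 1 of 5 GATA-type genes and 0 of 2 carotenoid genes. *PCON_10279* (subunit 1) had 0.41 (standard error 0.27) and *PCON_02554* (the F-box protein sconB of an SCF ligase) -0.26 (standard error 0.18). A further model similar to subunit 1, *PCON_09969*, had 3 counts in all.

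FRH and its relatives are also the helicases that feed RNA to the nuclear exosome as part of the TRAMP complex. Of 18 genes matched for the exosome and TRAMP, 10 were tested and 0 passed (0 also at an unadjusted p under 0.05, edgeR). Of the 10, 9 lay above 0, where 49.7% of all genes tested did, at a median log2 fold change of 0.32. This list took in *PCON_12990*, a histone deacetylase subunit, through letters in its accession, and without it 8 of 9 were above 0, with a median again of 0.32. It also took in *PCON_03171* (Superkiller protein 3) at 0.32 and the poly(A) RNA polymerases *PCON_11027* (cid1) at -0.24 and *PCON_12998* (cid13) at 0.20. These counts and medians are therefore those of the matched genes, not of the exosome and TRAMP alone. They also leave out the genes not tested, which had 5 to 53 counts in all and are named after their values were seen. Among these, mean CPM was lower in DD36 for *PCON_01246* (rrp4), *PCON_07953* (MTR3), *PCON_12416* (SKI6), *PCON_12938* (RRP42) and *PCON_06238* (cid14). It was higher for *PCON_03434* (csl4), *PCON_04679* (rrp45) and *PCON_13338* (RRP46). *PCON_05002* (AIR2, the RNA-binding subunit of TRAMP) had 4, 7 and 10 counts in DD24 libraries a, b and c and 10, 15 and 18 counts in those of DD36, with a log2 fold change of 0.75 (standard error 0.40). *PCON_04048* (the exonuclease rrp6) and *PCON_01724* (rrp40) had 0.48 and 0.56 (standard errors 0.32 and 0.39). *PCON_01724* had 10, 9 and 6 counts in DD24 libraries a, b and c and 13, 15 and 17 counts in those of DD36. *PCON_05002*, *PCON_01724* and *PCON_01030* (rrp43) passed the filter on low counts only with their DD36 libraries, where their means were higher. The share above 0 and the median therefore rest in part on genes selected by the same counts. The *frh* homolog itself stood at 0.07.

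WC-2 is a GATA-type zinc finger protein, and 5 other genes of this type were tested, of which 0 passed. *PCON_06721*, similar to a GATA zinc finger protein of a slime mold, stood at 0.32 on the log2 scale (standard error 0.16, edgeR adjusted p = 0.743), *PCON_01224* (asd-4) -0.37 (standard error 0.25) and *PCON_01759* (the nitrogen regulator areA) 0.08 (standard error 0.15). With the replicate block, *PCON_06721* (higher) and *PCON_01224* (lower) had unadjusted p of 0.0464 and 0.0498 and adjusted p of 0.420 and 0.430 (edgeR). In that fit 11.6% of all genes had an unadjusted p under 0.05. Carotenoid synthesis is a classic output of white collar signaling in *N. crassa*. *PCON_03421* (phytoene dehydrogenase) was at 73.3 ± 16.7 CPM in DD24 and 71.3 ± 14.4 in DD36 (SD, n = 3 for both), and *PCON_03423* (lycopene cyclase and phytoene synthase) had a log2 fold change of -0.43 (95% interval -1.26 to 0.40). The median of these 2 genes, -0.24, moved to 0.0037 under total-count scaling. The third gene of the list, *PCON_05718* (geranylgeranyl pyrophosphate synthase), did not pass the filter, with 0, 7 and 6 counts in DD24 libraries a, b and c and 7, 10 and 13 counts in those of DD36. Of the genes matched for velvet and other light-dependent regulators, which were 4 models similar to conidiation-specific proteins, 0 passed the filter. *PCON_08706*, similar to con-10, had 11 counts in all, *PCON_11571*, similar to con-6, had 1, and the other 2 models had 0. Both families are light-induced in *N. crassa*.

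**Figure D5:**
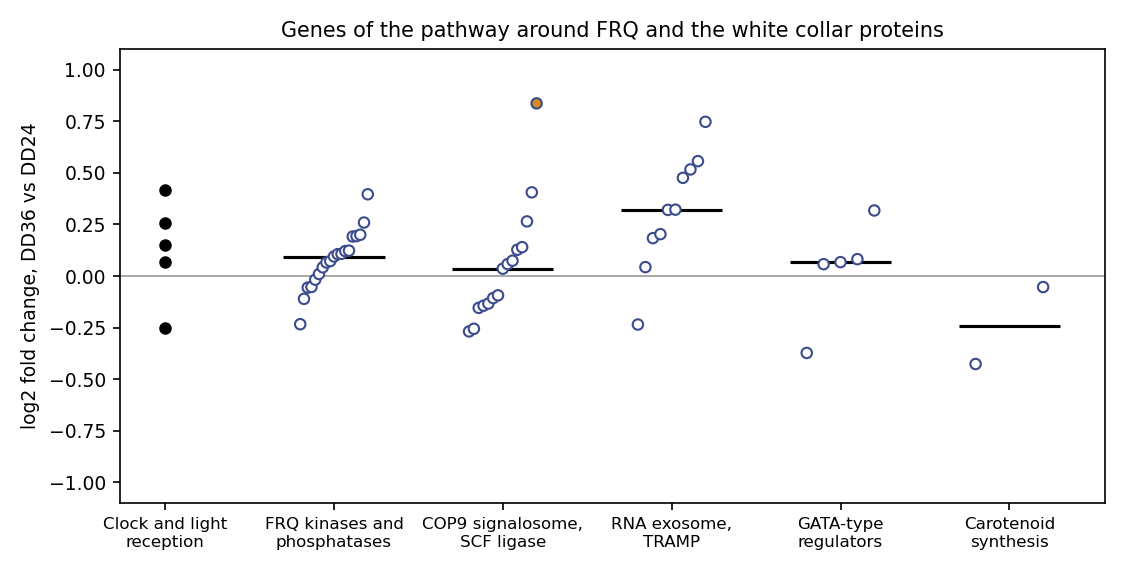
Log2 fold change in DD36 vs. DD24 (y axis) of the 5 clock and light reception genes tested (black) and of the tested genes of 5 lists (circles, filled where the unadjusted p from edgeR is under 0.05), with the median of each list as a line. The filled circle is *PCON_04325* at 0.84, and the line of the exosome and TRAMP list is at 0.32. *PCON_04325* passed the filter on low counts only with its DD36 libraries.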

How the data were processed

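RNA-seq of 6 libraries was analysed. Reads were trimmed and mapped to genome v01_2 of *P. confluens* by the authors, who deposited raw counts of reads per predicted gene. Per the labels, CASAVA 1.8.2 and DESeq were used; an aligner, a counting tool or a strand setting was not given in the sources used here. Further columns hold the authors' ratios, log2 ratios and p-values by LOX and DESeq, which were not used, and lengths of the gene models in bases (other values). The sums of counts are far below the numbers of mapped reads that the study lists. The 6 columns of counts were matched by title, and 0 were left out. Between libraries of 1 group, chi-square over its degrees of freedom was 3.36 to 14.1, and none was a copy of another.

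Counts were tested in R 4.3.3 with edgeR 4.0.16 (filterByExpr, TMM, robust quasi-likelihood fit with the time point as its term, Benjamini-Hochberg adjustment over 5466 genes, threshold 0.05). The block has the letter as an added term. Deviations of libraries with the same letter correlated at 0.219, 0.263 and 0.309, all above the minimum of 0.1 set for pairing; how cultures of a letter were related is not given, and other batches could not be examined. Standard errors are the log2 fold change divided by the square root of F. Alternatives were RLE and total-count scaling, no filter, at least 10 counts in each library, the block, DESeq2 1.42.0, limma-voom (limma 3.58.1), an adjusted p under 0.1 and leaving out each library. Fits with the block and another choice, and totals without the 4 most counted models, were chosen after seeing the data.

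All 6 genes are named, with the 3 genes of smallest p in each list and the 3 genes closest to *frq* by Pearson's r of log2(CPM + 1). The genes and lists were chosen with earlier results of these data known. No sequences of this species were at hand, and none are printed. The medium is named differently in the labels (WPC) and the paper (minimal medium).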

Additional observations from a re-analysis of the deposited data

How the results depend on the processing

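None of the 5 genes tested passed under any of the 18 alternatives that gave them an adjusted p. The log2 fold change stayed above 0 for *frq* (0.28 to 0.67) and the phytochrome-like gene (0.11 to 0.38) under all 18 alternatives run. It changed sign for the *frh* homolog without DD36 replicate a (-0.0053), for the *wc-1*-like gene with total-count scaling (0.0071, and 0.0098 with the replicate block) and for the *wc-2*-like gene *PCON_05086* when 1 library was left out (-0.070 without DD36 replicate a, up to 0.53 without DD36 replicate b) and with the replicate block without pair a (-0.13). None of these values was called, and the cause was not tested beyond the shift of all genes under total-count scaling.

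The count of all genes called, 0 in the fit without a block, was 53 with no filter beyond 1 count, 27 by DESeq2, 3 at an adjusted p under 0.1 and 0 to 20 when 1 library was left out (20 without DD24 replicate c). With the replicate block it was 71 (5 higher and 66 lower in DD36), and 72 with total-count scaling added (50 higher and 22 lower), so that the balance of directions turned with the scaling. It was 191 without pair a, 2 without pair b and 147 without pair c. No call of the 5 genes or of the lists changed with the block.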
